A study of Mus musculus with 186 samples.

Results

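The striatum of wild-type (WT) mice was compared with 5 other brain regions at 12 weeks of age. The 5 striatal (STR) libraries were set against the mean of 2 cortical areas, the prefrontal (PFC) and the somatosensory (SSC), and of the thalamus (TH), the hippocampus (HP) and the substantia nigra (SN), each region with 5 libraries and equal weight. These 30 of the 186 libraries in the series are those labelled WT and 12 weeks. Tissue was cut from frozen brains in a cryostat, and polyadenylated RNA was sequenced from 200 ng of total RNA. The study measured bulk RNA in these 6 regions, at 4 and 12 weeks of age, in WT mice and in mice labelled Akap11 +/- (HET) or Akap11 -/- (KO), Akap11 being a gene for a protein that anchors protein kinase A. All 30 libraries of the main comparison came from WT animals, so the mutation enters only where the contrast was repeated in HET and KO libraries. The sources used here do not give strain, sex, the nature of the mutant allele or which subdivision of the striatum was taken. Replicates are labelled as separate samples, but nothing states that they came from separate animals, so the p-values measure the spread between these samples.

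The striatum is the input station of the basal ganglia. Nearly all of its neurons are GABAergic projection neurons, which respond to dopamine through cyclic AMP and protein kinase A. Neurons of the direct pathway carry the D1 dopamine receptor (Drd1) with substance P (from Tac1) and dynorphin (from Pdyn), and those of the indirect pathway carry the D2 receptor (Drd2) and an adenosine receptor (Adora2a) with enkephalin (from Penk). A small share of the neurons are interneurons, among them the cholinergic cells. Glutamatergic neurons are lacking in the striatum and abundant in cortex, hippocampus and thalamus.

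Striatal libraries held 31.9 to 43.5 M counts (M, mega; median 37.3 M) and the other 25 held 36.7 to 69.8 M (median 48.9 M). Marker genes matched the region labels in the following sense. The mean log2(CPM + 1) of 30 genes of striatal projection neurons, called a score below (CPM, read counts scaled to library size), was 9.17 to 9.56 in striatum and 4.80 to 6.30 elsewhere. These genes, like those of the other lists below, were chosen with earlier results of these data known. Some libraries stood apart. STR WT 3 had the lowest striatal score and the highest score for ventricular lining genes (3.55), followed by STR WT 5 (2.93), while the other 3 striatal libraries lay between 1.15 and 1.82. STR WT 3 also had the highest score for genes of ventral striatum, pallidum and septum (3.24 against 2.47 to 2.69). Among thalamic libraries, TH WT 1 and TH WT 4 held signal of GABAergic neurons, with Gad1 at 426 and 582 CPM against 7.79 to 73.8 CPM in the other 3. HP WT 1 and HP WT 5 were the highest hippocampal libraries for 3 genes of striatal neurons. Adora2a was at 10.7 and 9.87 CPM there against 1.37 to 2.90 CPM in the other HP libraries. Penk was at 68.2 and 70.0 CPM against 30.1 to 45.5 CPM, and Drd1 at 12.4 and 16.3 CPM against 4.16 to 6.22 CPM. No run left out both of these HP libraries. Values without the striatal and thalamic libraries named here stand beside the class counts and the genes of GABAergic neurons. Those without 2 together were chosen after seeing the data.

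Promoter stretches of 3 genes are shown because their striatal level stood far above that of every other region and because each holds a sequence element tied to signalling described below. They come from RefSeq (build GRCm38.p6) and run 5' to 3' on the gene's strand, from 250 bases before to 50 after the annotated start. Capitals mark the element found by a search of both strands. Tac1 (chr6:7554811-7555110, plus strand) holds TGCGTCA, a near match to the cyclic AMP response element, 199 to 193 bases before the start. Gpr6 (chr10:41072241-41072540, minus strand), which encodes a receptor of indirect pathway neurons, holds the full palindromic element TGACGTCA 78 to 71 bases before the start. Rarb (chr14:16575427-16575726, minus strand), the retinoic acid receptor beta gene, holds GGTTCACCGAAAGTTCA, a repeat of the motifs GGTTCA and AGTTCA with 5 free bases between them, 53 to 37 bases before the start. That repeat is the form of element to which retinoic acid receptors bind.
Tac1: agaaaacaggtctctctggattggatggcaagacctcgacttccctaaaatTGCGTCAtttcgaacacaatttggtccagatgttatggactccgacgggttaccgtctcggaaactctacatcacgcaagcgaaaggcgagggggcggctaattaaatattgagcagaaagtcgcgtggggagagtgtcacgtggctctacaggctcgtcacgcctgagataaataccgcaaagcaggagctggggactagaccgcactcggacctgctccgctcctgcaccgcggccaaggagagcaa
Gpr6: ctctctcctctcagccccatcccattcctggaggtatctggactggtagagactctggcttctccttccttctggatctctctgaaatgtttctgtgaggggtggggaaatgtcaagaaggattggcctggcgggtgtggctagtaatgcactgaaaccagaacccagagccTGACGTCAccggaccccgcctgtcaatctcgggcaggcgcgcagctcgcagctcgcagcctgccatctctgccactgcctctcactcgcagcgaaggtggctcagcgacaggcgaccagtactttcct
Rarb: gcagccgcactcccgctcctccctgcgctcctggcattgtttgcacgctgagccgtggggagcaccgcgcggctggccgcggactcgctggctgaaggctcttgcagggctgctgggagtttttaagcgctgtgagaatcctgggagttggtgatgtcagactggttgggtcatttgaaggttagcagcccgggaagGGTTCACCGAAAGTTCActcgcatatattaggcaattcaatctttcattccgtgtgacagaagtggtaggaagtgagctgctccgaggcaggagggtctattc
Among all 27025 genes with a promoter in the table, 2.42% held TGCGTCA, 2.03% held TGACGTCA and 2 genes held the spaced repeat. Of the 12514 such genes tested below, 3.80% held TGCGTCA, 3.33% held TGACGTCA and 1 held the repeat. In the striatum-enriched class defined below the shares were 2.95% and 2.55%, and 1 gene held the repeat. A match describes letters in this window and shows no binding.

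Most genes differed between striatum and the averaged other regions. Of 17180 genes tested, 67.3% were called, of which 5591 were higher (32.5%) and 5969 were lower (34.7%) at an adjusted p under 0.05 in edgeR's quasi-likelihood test with Benjamini-Hochberg adjustment. The median log2 fold change over all genes was -0.03. Because the call alone was so common, a stricter class was used: a gene was termed striatum-enriched if it was called, at least 1 log2 unit higher, and higher in its lowest striatal library than in any of the 25 others. Striatum-depleted genes met the mirror rule. There were 742 striatum-enriched genes (4.32% of those tested) and 629 striatum-depleted genes (3.66%), together 7.98%. By lack of overlap alone, 7.78% of genes were above and 5.99% below all other libraries. The classes are defined by the values they describe, so their sizes and folds are a description. The median log2 fold change was 2.11 in the enriched class, with 396 genes at 2 or more and 127 at 4 or more. It was -1.73 in the depleted class, where 241 genes fell at or below -2 and 45 at or below -4. Without STR WT 3 the classes held 821 and 725 genes, without STR WT 3 and STR WT 5 872 and 841, and without TH WT 1 and TH WT 4 757 and 655. Leaving out any library relaxes the no-overlap rule, so a larger class is not read as an effect of that library's tissue. Over all 30 runs without 1 library the classes held 743 to 821 and 585 to 725 genes. In bulk tissue, more cells of a type and more RNA per cell cannot be told apart, which holds for every difference below.

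**Figure D1:**
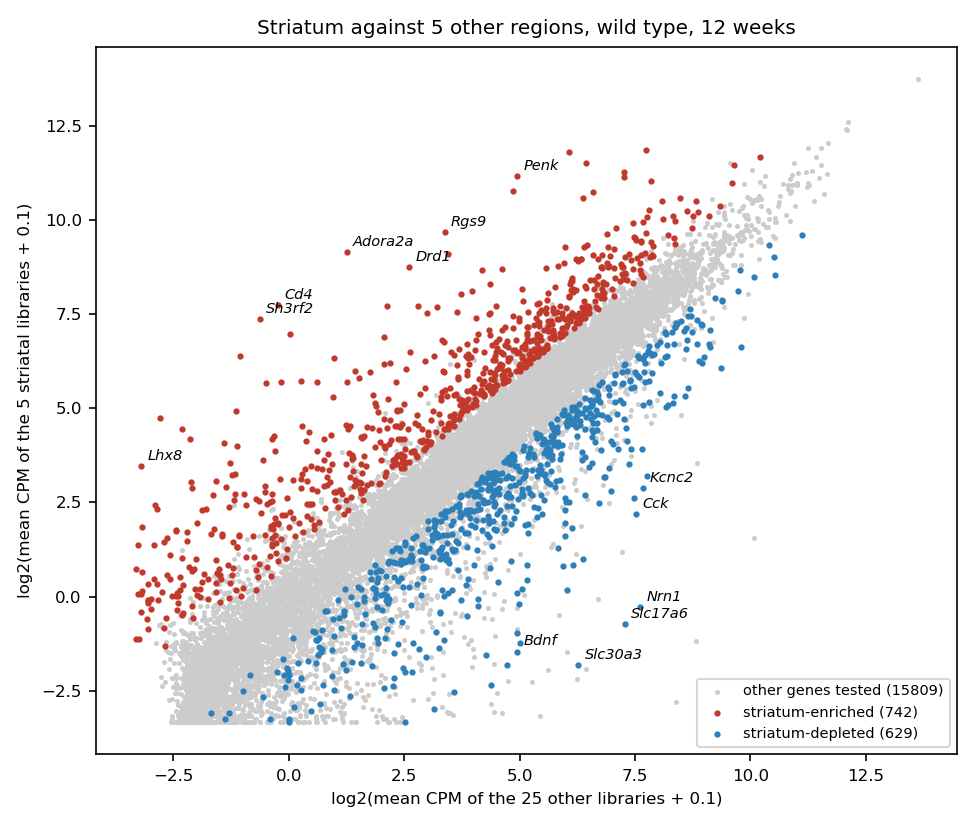
Mean level of each of the 17180 genes tested in striatum (vertical) against its mean in the 25 libraries of the other regions (horizontal), both as log2(CPM + 0.1), in WT mice at 12 weeks. Red points are the 742 striatum-enriched genes and blue points the 629 striatum-depleted genes. Grey points are the other genes tested.

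Taken singly, the regions differed in how many genes separated them from the striatum. In the same fit, 61.8% of genes were called against PFC (5323 higher, 31.0%, and 5296 lower, 30.8%). Against SSC 62.6% were called (5384 higher, 31.3%, and 5364 lower, 31.2%). Against HP it was 56.0% (4596 higher, 26.8%, and 5030 lower, 29.3%). The shares were larger against TH, at 69.7% (5659 higher, 32.9%, and 6308 lower, 36.7%), and SN, at 71.8% (5744 higher, 33.4%, and 6597 lower, 38.4%). These 5 comparisons share the striatal libraries. For enriched genes the next highest region was HP in 196, PFC in 180, SN in 146, SSC in 139 and TH in 81. For depleted genes the lowest of the other regions was HP in 228, TH and SN in 121 each, PFC in 89 and SSC in 70.

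Genes shared by all striatal projection neurons were higher in striatum than in the averaged other regions, though not always than in each region. All 30 listed genes were called higher (32.5% of all genes were) and 27 were striatum-enriched, with a median log2 fold change of 3.76 against -0.03 for all genes. Since the lists were chosen with earlier results of these data known, the list counts here and below are a description. Ppp1r1b, which encodes DARPP-32, the phosphatase inhibitor that relays dopamine signals, stood at 3741, 3874, 2911, 4024 and 3392 CPM in STR WT 1 to 5. The other 25 libraries ranged from 13.4 to 155 CPM with a median of 44.5 CPM, so the groups were far apart. Its log2 fold change was 6.08 ± 0.08 (SE). Rgs9, which encodes a G protein regulator that shortens dopamine receptor signalling, was at 919, 837, 692, 818 and 827 CPM against 1.5 to 26.7 CPM (6.60 ± 0.13). Syndig1l, related to a synapse-inducing protein, was at 391 to 665 CPM in striatum and at most 35.5 CPM elsewhere (6.53 ± 0.13). STR WT 3 was the lowest striatal library for these 3 genes. The 3 list members outside the enriched class were Ppp1r1a, Ddit4l and Hpca, and each was high in a further region: Hpca, a calcium sensor, averaged 2254 CPM in HP against 2897 CPM in striatum, and Ddit4l was higher in SSC (87.3 CPM) than in striatum (54.2 CPM).

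Direct pathway genes were mostly higher. Of 13 listed genes, 12 were called higher (32.5% of all genes), 8 of them striatum-enriched (4.32%). Drd1 (chromosome 13, 54051183 to 54055705, minus strand of GRCm38, protein coding) was at 424, 478, 374, 455 and 413 CPM in the 5 striatal libraries. It was between 1.09 and 16.3 CPM (median 5.69 CPM) in the others, with a log2 fold change of 6.43 ± 0.15. Tac1 was at 199.7, 225, 177, 252 and 186 CPM against 0.177 to 29.4 CPM, the latter in SN (5.67 ± 0.16). Pdyn was at 108, 82.8, 116, 47.4 and 93.1 CPM. This gene came close to overlap, since PFC reached 45.4 CPM and STR WT 4 stood only just above it (3.12 ± 0.34). Isl1, a transcription factor of direct pathway and cholinergic neurons, was at 18.1 to 20.9 CPM in striatum. It was at 0 in all 5 SSC libraries, which puts the striatum at least 1476-fold higher than a floor of 3 counts over those libraries. In thalamus Isl1 was at 6.06 and 8.21 CPM in TH WT 1 and TH WT 4 and at most 0.97 CPM in the other 3, and its log2 fold change was 8.11 ± 0.53 with all regions and 9.51 without TH. The fitted fold of a gene at 0 in a region depends on the prior count and is not a bound.

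Indirect pathway genes were also mostly higher. Of 11 listed genes tested, 9 were higher (6 of them enriched; 32.5% and 4.32% of all genes) and Nell1, a secreted protein gene, was depleted at -1.51 ± 0.06. Adora2a (chromosome 10, 75316877 to 75334784, plus strand, protein coding) was at 629, 577, 442, 633 and 555 CPM in striatum. No other library exceeded 10.7 CPM, and the log2 fold change was 8.18 ± 0.21. Drd2 was at 343, 352, 238, 339 and 293 CPM. Its next region was SN, where the dopamine neurons carry it as an autoreceptor, at 93.7 ± 9.79 CPM (SD, n = 5), and the log2 fold change was 6.69 ± 0.13 against all regions but 1.74 ± 0.19 against SN. Penk was at 2488, 2630.2, 2016, 2278 and 2054 CPM and at most 70.0 CPM elsewhere (6.97 ± 0.16). Gpr6, whose promoter is shown above, was at 144, 138, 104, 129.9 and 110.4 CPM against at most 2.78 CPM (7.47 ± 0.20). Six3, a transcription factor of indirect pathway neurons, was called higher (6.31 ± 0.42) but overlapped: it was at 59.6 to 79.5 CPM in striatum, 44.6 and 69.4 CPM in TH WT 1 and TH WT 4, and 28.6 ± 6.43 CPM in SN. Without those 2 thalamic libraries the log2 fold change was 6.75 for Six3 and 8.58 for Isl1.

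**Figure D2:**
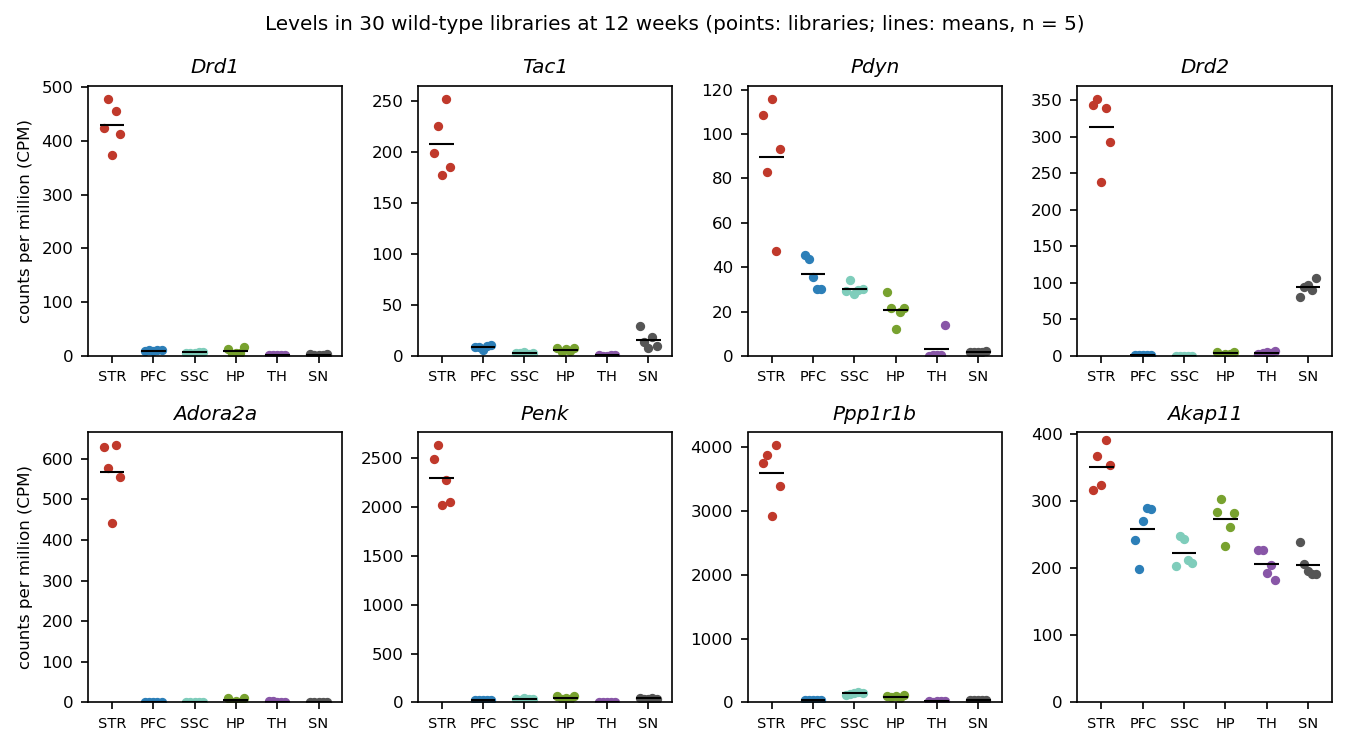
CPM of 8 genes in each of the 30 WT libraries at 12 weeks by region; points are libraries and lines are means of 5, and each panel has its own linear axis from 0. The substantia nigra stands out for Drd2 (93.7 CPM) and the prefrontal cortex for Pdyn (37.0 CPM), and Akap11 shows far smaller differences than the other genes.

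Of 26 transcription factors of striatal development tested, 20 were higher (16 enriched) and 3 were lower (32.5%, 4.32% and 34.7% of all genes), with a median of 2.74. The distal-less genes Dlx5 and Dlx6, which specify GABAergic neurons, were at 21.8 ± 1.68 and 55.7 ± 6.11 CPM (SD) and were enriched, while Dlx1 ranged from 2.82 to 29.6 CPM between striatal libraries and was not called. Foxp1 and Foxp2 were both enriched (2.86 ± 0.08 and 2.63 ± 0.19), whereas their relative Foxp4 was lower (-0.72 ± 0.11). Ikzf2 was also lower (-0.71 ± 0.15).

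Genes of retinoic acid signalling are given by role. Of 6 receptor genes, 5 were higher and Rara, the alpha receptor, was depleted (-1.45 ± 0.18). The 4 genes of binding proteins were higher, while 3 synthetic enzymes, 1 degrading enzyme (Cyp26b1) and the uptake receptor Stra6 were lower. The retinol enzymes Dhrs3 and Rdh10 were not called. Rarb was at 183, 205, 168, 186 and 178 CPM against 3.64 to 11.9 CPM (4.58 ± 0.08). Its partner receptor gene Rxrg was at 219.7, 255, 137, 232 and 197 CPM against at most 14.4 CPM (6.41 ± 0.13). Crabp1, which encodes a cytosolic retinoic acid carrier, was at 10.9 to 12.8 CPM and at most 0.93 CPM elsewhere (6.16 ± 0.14). The synthetic enzyme Aldh1a2 was at 0.23 to 0.93 CPM in striatum and 13.5 ± 4.35 CPM in PFC (-2.85 ± 0.52). Aldh1a1 (-1.88 ± 0.18) was highest in SN, at 826 ± 118 CPM, but striatum (15.2 to 47.8 CPM) stood above PFC (9.45 to 13.6 CPM). Aldh1a3 averaged 0.28 CPM in striatum and 0.27 CPM in TH. The degrading enzyme Cyp26b1 was at 0.61 to 1.12 CPM in striatum and at 17.0 ± 4.2 CPM in HP (-2.58 ± 0.22). Over the 17 genes tested, 9 were higher (3 enriched) and 6 lower (1 depleted), against 32.5% and 34.7% of all genes.

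Genes that carry the dopamine and cyclic AMP signal were mostly higher, with exchanges within families. Of 36 genes, 27 were higher (23 enriched) and 8 lower (2 depleted), where 32.5% (4.32%) and 34.7% (3.66%) of all genes were, with a median of 2.17. The stimulatory G protein alpha subunits went opposite ways. Gnal, which encodes the olfactory-type subunit, was at 1499.9, 1694, 1228, 1451 and 1339 CPM in striatum against at most 578 CPM (2.59 ± 0.05). Gnas, the common subunit, was at 352, 367, 428, 359 and 347 CPM, below the lowest of the other libraries at 1128 CPM (-1.98 ± 0.05). The Gnas locus also gives overlapping transcripts from other promoters, which gene-level counts do not separate. Gng7, the gamma subunit gene, was at 1465 to 2149 CPM against at most 263 CPM (4.43 ± 0.06). Adenylyl cyclases, which make cyclic AMP, showed a like split. Adcy5 was at 1839 to 2409.5 CPM against at most 229.7 CPM (3.91 ± 0.06), while Adcy8 was at 3.98 to 4.74 CPM against at least 12.3 CPM (-3.05 ± 0.12). Adcy1 was lower than the mean of the other regions (-1.56 ± 0.11) but higher than SN by 0.84 ± 0.12. Among phosphodiesterases, which break cyclic nucleotides down, Pde10a stood at 3111, 3479, 2053, 3261 and 2689 CPM and at most 146 CPM elsewhere (5.12 ± 0.10). Pde1b, Pde7b, Pde1c, Pde2a, Pde8b and Pde4b were also enriched, Pde1a and Pde4a were lower, and Pde4d was not called (-0.16 ± 0.08).

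The protein kinase A complex itself did not share this pattern. Of 17 genes for its subunits, inhibitors, anchors and AKAP11 partners, 8 were higher and 7 lower (32.5% and 34.7% of all genes), and the median was 0.05. Akap11 (chromosome 14, 78492246 to 78536808, minus strand, protein coding) was at 316, 367, 324, 391 and 353 CPM in striatum and 182 to 302 CPM elsewhere. The groups did not overlap, but the log2 fold change of 0.60 ± 0.07 (adjusted p = 8.6e-09, edgeR) fell short of the 1 unit set for the enriched class. The nearest region was HP at 272 ± 26.3 CPM. The kinase's regulatory subunits differed: Prkar2b was enriched (149 to 167 CPM, 2.01 ± 0.05), Prkar1b was depleted (368 to 454 CPM against at least 490.3 CPM, -1.01 ± 0.06) and Prkar2a was lower (-0.95 ± 0.06). Prkar1a was not called (-0.07 ± 0.04). Among anchors, Akap5 was at 439, 522, 472, 481 and 469 CPM against at most 192 CPM (3.70 ± 0.09), and Akap12 (-2.05 ± 0.08) and Akap7 (-1.15 ± 0.07) were depleted. The inhibitor gene Pkib was depleted as well, at 1.82 to 2.92 CPM (-1.94 ± 0.12). Gsk3b, a kinase that binds AKAP11, was at 325 to 434 CPM against at most 266 CPM (0.79 ± 0.06), while Gsk3a was not called (0.05 ± 0.04).

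Among 45 G protein-coupled receptor genes tested, 31 were higher (15 enriched) and 10 lower (2 depleted). Over all genes the shares were 32.5% (4.32%) and 34.7% (3.66%). Beyond the dopamine and adenosine receptors, enriched genes included the muscarinic receptor Chrm4 (82.6 to 102 CPM, 3.75 ± 0.14), the serotonin receptors Htr1b (3.90 ± 0.14) and Htr1d (4.91 ± 0.22), the substance P receptor Tacr1 (4.82 ± 0.21) and the cannabinoid receptor Cnr1 (3.00 ± 0.15). Cnr1 came close to overlap, with its lowest striatal library at 270.2 CPM and PFC at up to 266.1 CPM. It averaged 538 CPM in striatum, 233 CPM in PFC and 6.95 CPM in TH. Lower were the presynaptic glutamate receptor Grm2, at 0.93 to 1.20 CPM against at least 5.02 CPM (-5.58 ± 0.37), the GABA-B subunit Gabbr2, at 98.6 ± 8.30 CPM against at least 240.3 CPM (-2.36 ± 0.06), and the serotonin receptor Htr7 (-2.21 ± 0.16). Gabbr1, the partner of Gabbr2, was slightly higher (0.31 ± 0.03).

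Of 19 neuropeptide genes, 7 were higher and 9 lower (32.5% and 34.7% of all genes), with 3 enriched (Penk, Tac1 and Pdyn, described above) and 4 depleted. Cholecystokinin (Cck), made by cortical and thalamic excitatory neurons and by some interneurons, was at 4.83, 6.39, 3.21, 3.23 and 4.56 CPM against 17.1 to 356 CPM (-4.97 ± 0.17). Adcyap1, which encodes PACAP, was at 0.02 to 0.33 CPM against at least 0.95 CPM (-5.50 ± 0.49), and Pnoc, the nociceptin precursor, was depleted too (-3.18 ± 0.30). Grp, gastrin-releasing peptide, was at 0 in all 5 striatal libraries, at least 1111-fold lower than PFC (18.2 ± 2.42 CPM) against a floor of 3 counts over the 5. Neurotensin (Nts) was called higher (3.31 ± 0.44) at a low level, 1.15 to 6.84 CPM, with the highest value in STR WT 3.

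Of 48 potassium channel genes, 21 were higher and 24 lower (32.5% and 34.7% of all genes), with 10 enriched and 9 depleted (4.32% and 3.66%), and the median was -0.21. Enriched genes included Kcnj4 and Kcnj2, inward rectifiers that hold projection neurons at a negative resting potential. Kcnj4 was at 339, 325, 265, 319.9 and 311 CPM against at most 157 CPM (3.60 ± 0.30). Kcnh4 was at 71.6 to 111 CPM, with SSC the nearest at up to 50.7 CPM (4.66 ± 0.14), and Kcna5 was at 33.1 to 46.1 CPM against at most 3.77 CPM (4.61 ± 0.18). The G protein-gated rectifiers were depleted, Kcnj6 at 0.65 to 1.18 CPM against at least 7.70 CPM (-4.82 ± 0.19) and Kcnj3 at 12.8 to 17.1 CPM (-3.02 ± 0.11). Kv3 genes, which serve fast-spiking neurons, were depleted as well, among them Kcnc2 (5.93 to 8.05 CPM against at least 66.7 CPM, -4.45 ± 0.10), Kcnc4 (-3.49 ± 0.17) and Kcnc1 (-1.17 ± 0.07). Of 28 ionotropic receptor subunits, 12 were higher and 13 lower, against the same 32.5% and 34.7% of all genes. Gabrd (2.62 ± 0.14) was higher without being enriched, since TH matched it (204 CPM against 197 CPM in striatum). The kainate receptor subunit Grik2 (1.65 ± 0.04) and the GABA-A subunit Gabrg3 (1.35 ± 0.08) were enriched, Grik1 (-2.30 ± 0.14) and Grik4 (-2.05 ± 0.12) were depleted, and Gabra3 was lower (-1.90 ± 0.14).

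Transmitter genes of GABAergic neurons were high and the main glutamate transporters were near 0. The vesicular GABA transporter Slc32a1 (2.23 ± 0.34) and Gad2 (1.62 ± 0.34) were enriched, and Gad1 was higher (1.07 ± 0.37). In SN, the nearest region, Slc32a1 was at 185 to 269 CPM and Gad2 at 378 to 487 CPM, without overlap with striatum at 318 to 375 CPM and 492 to 610 CPM. Gad1 overlapped, at 678 ± 124 CPM in SN and 781 ± 54.2 CPM in striatum. The log2 differences from SN were 0.62 ± 0.51 for Slc32a1, 0.30 ± 0.50 for Gad2 and 0.20 ± 0.52 for Gad1 in the fit over 30 libraries, and none passed (adjusted p = 0.28, 0.60 and 0.73, edgeR). In a fit of the 10 striatal and SN libraries alone, chosen after seeing the data, they were 0.67, 0.35 and 0.25 and all passed (adjusted p = 4.4e-05, 0.0015 and 0.045, edgeR). The fit over 30 libraries shares its spread with TH, where Slc32a1 ran from 0.74 to 85.7 CPM and Gad2 from 6.23 to 291 CPM. Without TH WT 1 and TH WT 4 the folds against all regions were 2.77, 2.12 and 1.56, and of the differences from SN only that of Slc32a1 passed (adjusted p = 0.012, against 0.16 for Gad2 and 0.48 for Gad1). Slc17a6, the glutamate transporter of thalamic neurons, was at 0.07, 0, 0.33, 0.06 and 2.07 CPM in STR WT 1 to 5 against 7.90 to 561 CPM (-6.96 ± 0.46). Slc17a7, its cortical counterpart, was at 1.51 to 4.56 CPM in striatum and on average at 1886, 1441, 1515, 529 and 11.2 CPM in PFC, SSC, HP, TH and SN (-7.39 ± 0.79). It overlapped with SN, where SN WT 1 to 5 were at 0.81, 14.1, 0.51, 0.27 and 40.1 CPM. SN WT 2 and SN WT 5 thus carried the SN mean, and SN WT 1, 3 and 4 lay below all striatal libraries. Slc17a8, the transporter of cholinergic interneurons, was enriched (21 to 35.1 CPM, 3.53 ± 0.30).

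Markers of cholinergic interneurons were enriched in 7 of 7 cases (4.32% of all genes), with a median of 6.5. Chat, which makes acetylcholine, was at 52.1, 54.3, 39.4, 56.7 and 49.7 CPM against at most 3.42 CPM (7.15 ± 0.36). Lhx8 (chromosome 3, 154306294 to 154330659, minus strand), a transcription factor of these cells, was at 9.95, 11.4, 10.1, 12.0 and 11.1 CPM and had the largest fold of any enriched gene at 10 CPM or more. It was at 0 in SSC and TH, at least 848-fold and 871-fold below the striatum against a floor of 3 counts over 5 libraries. Interneurons that use GABA were uneven: of 15 markers, 9 were higher (3 enriched: Pthlh, Chodl and Reln) and 5 lower (2 depleted: Cck and Calb2), against 32.5% and 34.7% of all genes. Sst, somatostatin, was at 164 ± 10.7 CPM (SD), and at 172 ± 21.1 CPM in PFC, and Pvalb, parvalbumin, was lower (-2.65 ± 0.27).

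Genes among the 10 with the largest folds at a striatal mean of 10 CPM or more were Lhx8, RP23-21B1.4, Sh3rf2, Cd4, Serpina9, Adora2a, Isl1, Gpx6 and Ptpn7. RP23-21B1.4, a clone-named symbol with no match in the annotation used, was at 20.7 to 32.8 CPM and at 0 in SN. Sh3rf2, a scaffold of stress kinase signalling, was at 178, 220.0, 137, 157 and 131 CPM against at most 3.01 CPM (9.49 ± 0.21). Cd4, best known as the coreceptor of helper T cells, was at 196, 208, 179, 258 and 226 CPM and at most 3.40 CPM elsewhere (8.39 ± 0.23). Serpina9, a protease inhibitor gene, was at 74.8, 76.2, 84.4, 88.9 and 91.7 CPM against at most 1.83 CPM (8.23 ± 0.27). Gpx6, a glutathione peroxidase, was at 11.9, 15.8, 17.9, 22.8 and 22.5 CPM (8.07 ± 0.23), and the phosphatase gene Ptpn7 at 14.0 to 28.8 CPM (7.84 ± 0.20), with both at most 0.56 CPM elsewhere. Measured by the gap to the next highest region, the leading genes were Adora2a, Cd4, Sh3rf2, Gpr6 and Serpina9, at log2 ratios of 6.51, 6.49, 6.01, 5.72 and 5.58 after adding 1 CPM.

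The 10 depleted genes with the largest folds included several of excitatory neurons. Nrn1 (chromosome 13, 36725361 to 36735131, minus strand), which encodes a membrane-anchored neurite growth factor, was at 0.60, 0.41, 0.45, 0.67 and 1.49 CPM in striatum. In every other library it was between 60.8 and 297 CPM (-7.98 ± 0.18). Slc30a3, the zinc transporter of glutamatergic vesicles, was at 0.14 to 0.24 CPM against 0.66 to 156 CPM (-7.62 ± 0.43). Bdnf, the neurotrophin that cortical axons supply to the striatum, was at 0.10, 0.06, 0.54, 0.36 and 0.26 CPM against 7.55 to 68.7 CPM (-6.66 ± 0.32). The adrenergic receptor Adra1d (-6.44 ± 0.29), the natriuretic peptide clearance receptor Npr3 (-6.37 ± 0.37), the matrix protein gene Smoc2 (-6.22 ± 0.38) and the transcription factor Bhlhe22 (-5.39 ± 0.35) followed, together with Slc17a6, Grm2 and Adcyap1. By the class rule, each of these 10 genes was above 0 in all of the other 25 libraries. In striatum some were near the floor: Slc17a6 was as low as 0 CPM and Adcyap1 as low as 0.02 CPM. Their folds are therefore less certain in size.

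Markers of neighbouring cell types were measured to check what the striatal tissue held, and their counts stand against 32.5% of all genes higher and 34.7% lower. Of 16 cortical excitatory genes, 13 were lower (4 depleted) and 1 was higher, Rspo1 (1.32 ± 0.20), which SSC exceeded at 36.8 CPM against 7.28 CPM. The cortical score was 1.60 to 1.83 in striatum and 5.88 to 6.37 in the 2 cortical regions. Of 12 thalamic genes, 10 were lower and Gbx2 was called higher at 0.93 CPM, a call lost without PFC (adjusted p = 0.12, edgeR) or SSC (0.055). Of 10 hippocampal genes, 6 were lower and 2 higher (Fibcd1, 1.53 ± 0.19, and Zbtb20), although HP exceeded the striatum in both. Dopamine neuron genes (2 of 15 higher, 7 lower) showed the same limit of a contrast on averaged log levels: Th was called higher (1.99 ± 0.27) at 13.2 ± 2.10 CPM against 843 ± 121 CPM in SN, because the other 4 regions were near 1 CPM, and Slc10a4 (4.96 ± 0.20) behaved alike. The dopamine transporter Slc6a3 was at 0 in 3 striatal libraries and at most 0.13 CPM in the others.

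Glial, vascular and lining genes stand against the same shares of all genes, 32.5% higher and 34.7% lower. Of 17 myelin and oligodendrocyte genes, 13 were higher and 2 lower with none enriched, and their score of 6.68 to 6.99 in striatum lay between PFC (4.47 to 4.81) and SN (7.66 to 7.95). For Mobp (0.77 ± 0.16) the call was lost without PFC (adjusted p = 0.54, edgeR) or with the cortical regions averaged first (0.095). Cspg4, of oligodendrocyte precursors, was slightly lower (-0.24 ± 0.09), and that call was lost without SN, without TH, or without any 1 of 5 single libraries (HP WT 3, SN WT 5 and STR WT 3, 4 and 5). Astrocyte genes were lower in 11 of 14 cases (4 depleted), led by Agt (-3.66 ± 0.36), and their score was 5.89 to 6.14 in striatum against at least 6.26 elsewhere. Of 12 microglial genes, 9 were higher, with a median of 0.22. Their score of 4.76 to 5.04 in striatum overlapped, however, with SN (4.92 to 5.05), PFC (4.65 to 4.95) and HP (4.45 to 4.92). Endothelial and mural genes were lower in 7 of 12, with Cdh5 at -0.61. Choroid plexus genes were lower in 9 of 12, and HP held the most, with Ttr at 2247 CPM on average. The 1 gene called higher, Clic6, was at 14.9 to 23.0 CPM in striatum, below the HP mean of 49.1 CPM. The choroid plexus score was 0.80 to 1.17 in striatum, above PFC and SSC (at most 0.78 and 0.76). Ventricular lining genes were higher in 7 of 9 with none enriched, and Tmem212, a gene of ciliated ependymal cells, was at 0.79, 0, 5.21, 0 and 3.82 CPM in STR WT 1 to 5 (6.18 ± 0.87). Its log2 fold change was 5.42 without STR WT 3. Of 9 genes of ventral striatum, pallidum and septum, 5 were higher (1 enriched) and 1 was lower. The part of ventricular or septal tissue in other results was not tested.

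**Figure D3:**
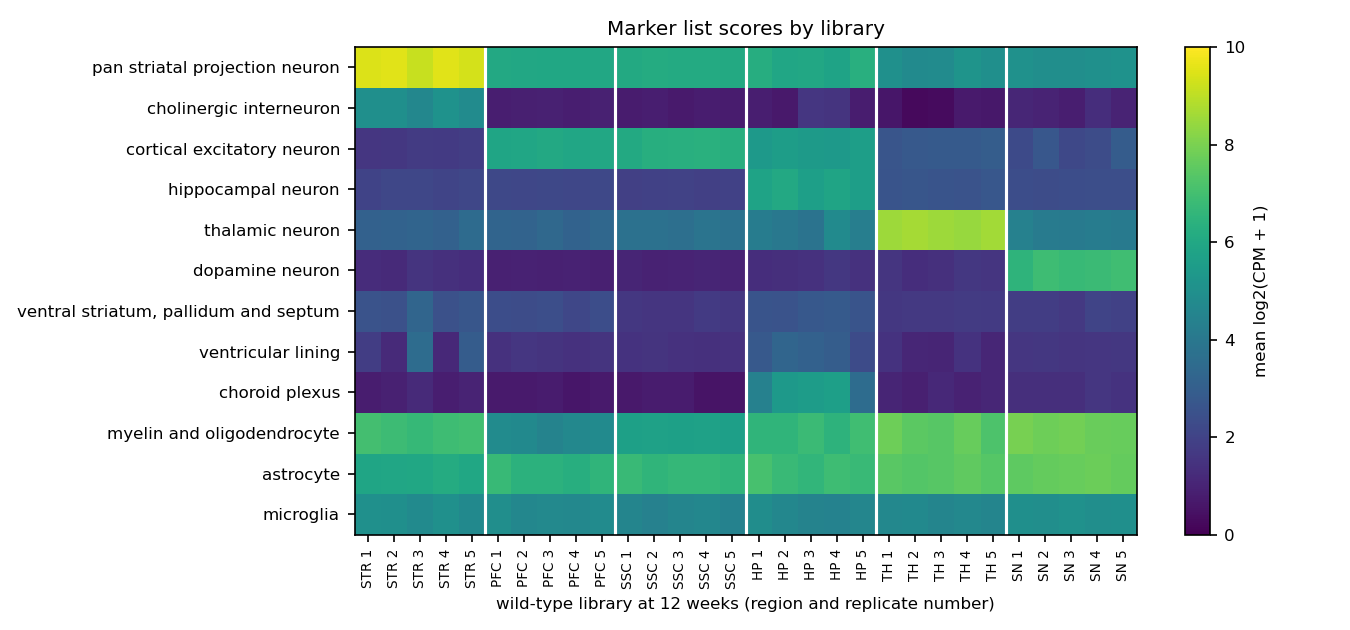
Mean log2(CPM + 1) of 12 marker lists (rows) in the 30 WT libraries at 12 weeks (columns, by region and replicate number). The projection neuron score is 9.17 to 9.56 in the 5 striatal libraries, and the ventricular lining row shows STR 3 (3.55) and STR 5 (2.93) above the other striatal libraries.

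Genes induced by neuronal activity were higher in 10 of 17 cases and lower in 3 (32.5% and 34.7% of all genes), with 2 depleted and none enriched. Their score averaged 5.26 in striatum, 5.73 in PFC, 5.02 in SSC and 5.10 in HP, with overlapping ranges, and 3.40 in TH and 3.24 in SN. Egr2, an immediate early transcription factor, had the largest fold (4.07 ± 0.33), at 10.5, 21.7, 32.3, 22.6 and 36.6 CPM. It overlapped with PFC at 17.1 ± 7.24 CPM. Nr4a2, a nuclear receptor of dopamine and deep cortical neurons, was depleted at 0.38 to 1.54 CPM (-4.55 ± 0.30).

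**Figure D4:**
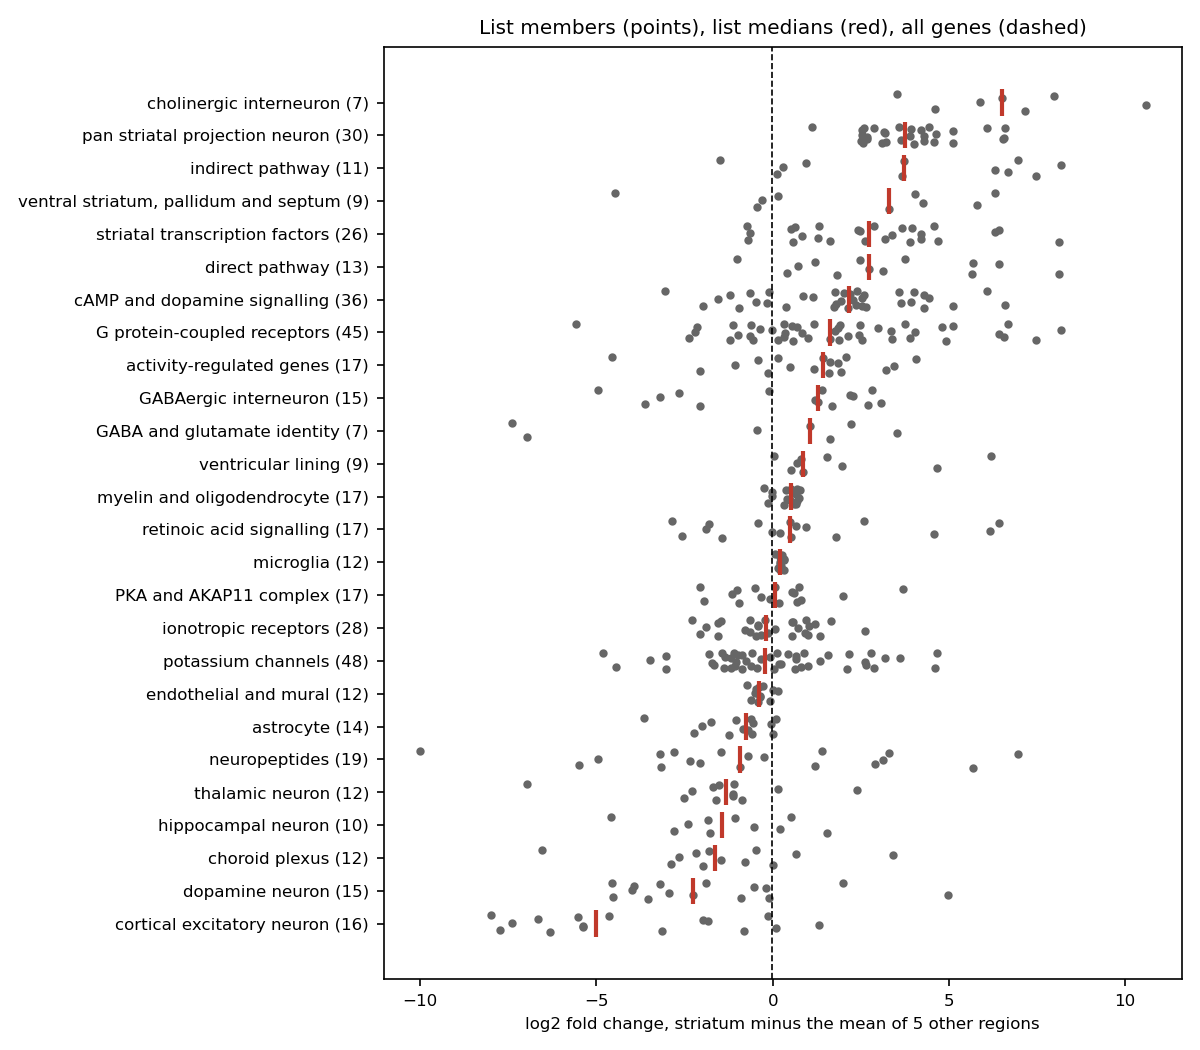
Log2 fold change of striatum against the mean of the 5 other regions for each tested member of 26 gene lists (points; number tested in brackets), with the list median in red and the median of all genes (-0.03) dashed. Medians run from 6.5 for cholinergic interneuron genes to -5.01 for cortical excitatory genes, and the point at -10.0 is Grp, at 0 in striatum, whose fitted fold is not a bound.

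Striatal libraries differed among themselves more for some enriched genes than for others. Over the 544 enriched genes with a striatal mean of at least 10 CPM, the coefficient of variation over the 5 libraries ran from 1.95% to 37.5% with a median of 11.1%. It was 8.12% over all 9768 genes tested at that level. The most variable were Reln, Cnr1, Stc1, Ryr1 and Car12. Reln, a secreted glycoprotein gene, was at 261, 343, 136, 195 and 167 CPM, and Cnr1 at 575, 708, 270.2, 733 and 405 CPM. Both were lowest in STR WT 3. Ryr1, a calcium release channel, and Car12, a carbonic anhydrase, were high in STR WT 1 and 2 (117 and 142 CPM for Ryr1, 142 and 147 CPM for Car12) and lower in the other 3, at most 79.9 CPM and 79.6 CPM. Stc1 had its highest value, 20.7 CPM, in STR WT 4. The least variable included Nsg2, Ppp4r4, Ccnyl1 and Plekha5.

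The contrast was repeated in 3 sets of libraries that the classes had not used. At 4 weeks in WT mice, 52.9% of 16946 genes were called (26.8% higher and 26.1% lower). In 12-week HET mice 68.1% of 17077 were called (34.7% and 33.3%), and in 12-week KO mice 68.2% of 17161 (34.0% and 34.2%). Of the 742 enriched genes, 734 were tested at 4 weeks and all 734 were called higher again, as were all 738 tested in HET and 732 of 736 tested in KO. The full enriched definition was met again by 571 genes at 4 weeks (4.01% of all genes met it), 685 in HET (4.79%) and 589 in KO (4.28%). Of the 629 depleted genes, 624 of 628 tested at 4 weeks were called lower again, with 629 of 629 in HET and 628 of 629 in KO. The full depleted definition was met again by 314 (2.36% of all genes), 509 (3.78%) and 487 (3.60%). Both classes together took 6.37%, 8.57% and 7.87% of all genes in these sets. Over all genes tested in both sets, the sign was the same in 89.3%, 92.5% and 90.5%. A gene that passed the low-count filter through striatum alone had to differ, so these counts are a description. At 4 weeks 6 libraries had marker scores that stood apart, and without them 5475 genes were higher and 4867 lower, against 4547 and 4415 with them.

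The pathway genes were measured in each set. The log2 fold change of Drd1 was 6.43 ± 0.15 in 12-week WT, 6.76 ± 0.22 at 4 weeks, 6.57 ± 0.19 in HET and 6.35 ± 0.14 in KO. That of Penk was 6.37 ± 0.49 at 4 weeks, 7.18 ± 0.18 in HET and 7.26 ± 0.14 in KO. Pdyn was at 149 to 242 CPM in KO striatum and 47.4 to 116 CPM in WT, but the difference of the contrasts did not pass (1.00 ± 0.52, adjusted p = 0.41, edgeR). At 4 weeks the log2 fold change was -3.97 ± 0.56 for Bdnf and -4.62 ± 0.71 for Nrn1. In both genes 1 of the 5 striatal libraries, STR WT 92, carried the high values: Bdnf was at 4.98 CPM there and 0.18 to 0.69 CPM in the other 4, and Nrn1 at 32.8 CPM and 0.31 to 1.16 CPM. That library is among the 6 whose marker scores stood apart, and without those 6 the values were -5.83 and -8.09. Akap11 checks the genotype labels: its striatal mean was 350.3 CPM in WT, 190.1 CPM in HET and 21.9 CPM in KO at 12 weeks. Its striatal contrast was 0.62 ± 0.06 in HET and 0.37 ± 0.09 in KO, and the KO contrast did not differ from WT beyond error (-0.24 ± 0.12, adjusted p = 0.37, edgeR).

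Whether the striatal contrast itself differed between KO and WT at 12 weeks was tested in 1 fit over 60 libraries. It differed in 3.34% of 17628 genes, 256 higher (1.45%) and 332 lower (1.88%) in KO. These counts depended on single replicate numbers: without number 1, 4 or 5 they were 117 and 179, 124 and 184, or 129 and 172. Among the 742 enriched genes 53 were lower and 9 higher in KO, and among the 629 depleted genes 11 were lower and 30 higher. The same WT libraries chose these classes and enter the difference, so nothing is read from these counts. By rule the 3 largest differences each way among enriched genes are given. The largest falls were in Aoah, Ifi27l2a and Abi3bp. Abi3bp, a matrix protein gene, was at 24.1 to 29.1 CPM in WT striatum and 2.94 to 5.31 CPM in KO striatum, without overlap. Its contrast was 3.73 ± 0.12 in WT and 1.21 ± 0.17 in KO, a difference of -2.52 ± 0.24 (adjusted p = 4.7e-11, edgeR). Aoah, a lipase gene that inactivates endotoxin, was at 1.18 to 1.71 CPM in WT and 0.06 to 0.21 CPM in KO (difference -3.46 ± 0.53). Ifi27l2a, an interferon-induced gene, was at 0.67 to 1.46 CPM and 0.14 to 0.28 CPM (-2.70 ± 0.66), a call lost without replicate number 2 (adjusted p = 0.062). The largest rises were in Dchs2, Reln and Rgs2. Rgs2, a G protein regulator, was at 141 to 241 CPM in WT and 272 to 398 CPM in KO striatum (0.65 ± 0.10). Reln was at 136 to 343 CPM and 255 to 406 CPM, so its groups overlapped (0.78 ± 0.21, adjusted p = 0.019), and this call was lost without number 1, 3 or 5. Dchs2, a large cadherin gene, had 10.1 to 18.1 CPM and 19.3 to 25.2 CPM (0.82 ± 0.24, adjusted p = 0.040), lost without number 1, 2, 3 or 4. Egr2 fell from 10.5 to 36.6 CPM in WT to 1.00 to 6.38 CPM in KO striatum, and its contrast differed by -2.77 ± 0.67 (adjusted p = 0.0088, edgeR). For Egr2 this difference was not rerun with replicate numbers left out, so whether its call depends on 1 of them was not tested.

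**Figure D5:**
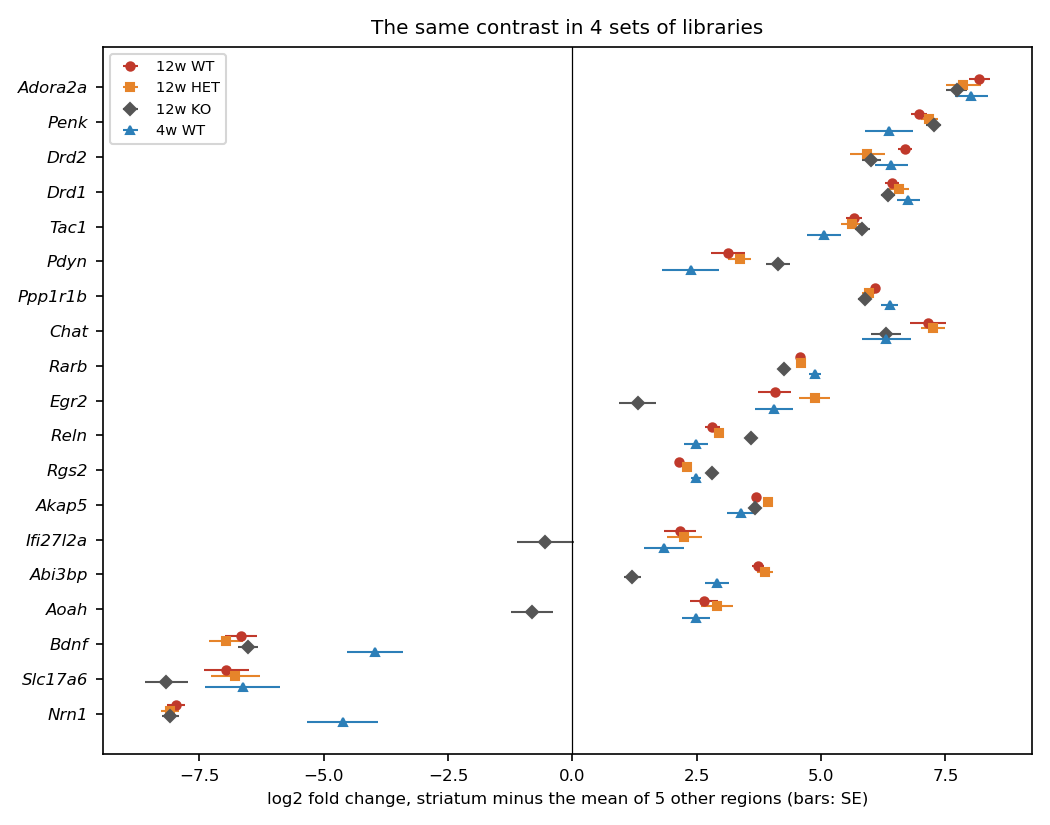
Log2 fold change of striatum against the mean of the 5 other regions for 19 genes in 4 sets of libraries, with bars of 1 SE. Aoah, Ifi27l2a, Abi3bp and Egr2 are lower in KO (Abi3bp at 1.21 against 3.73 in WT). Nrn1 and Bdnf at 4 weeks (-4.62 and -3.97) include the library STR WT 92; without the 6 libraries that stood apart they were -8.09 and -5.83.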

How the data were processed

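Bulk RNA-seq libraries (TruSeq Stranded mRNA kit, per the labels' protocols) were analysed from the authors' deposited table of expected counts, estimated counts per gene symbol that need not be whole (77.9% of values above 0 were not). The submitters' processing notes name Salmon and mm10; the sources used here do not give versions, annotation or use of strand, so overlapping, antisense and near-identical genes are uncertain. Of the columns, 0 lacked a sample. Expected counts were rounded, filtered with filterByExpr by region, scaled by TMM and fitted with edgeR 4.0.16 (R 4.3.3; estimateDisp, glmQLFit, glmQLFTest) over the 30 WT libraries at 12 weeks, without covariates, as striatum minus the mean of 5 regions. P-values were Benjamini-Hochberg adjusted over all genes tested and called under 0.05. The same fit was run per region and in 4-week WT, 12-week HET and 12-week KO libraries, and the KO minus WT difference over 60 libraries. CPM are TMM-scaled. The SE is the log2 fold change divided by the square root of F. Replicate pairs differed well beyond sampling noise (chi-square per degree of freedom of at least 11.8), so each library counted as 1 sample. Totals of 31.9 M counts or more limit precision only for weakly expressed genes; floors of 3 counts cover counting error only. Positions come from GENCODE M21 (GRCm38, that is mm10) by symbol, for 96.7% of genes tested, and are 1-based.

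The members and the 26 gene lists were chosen with earlier results of these data known. Genes named are the 10 largest enriched and 10 largest depleted at 10 CPM, the 5 with the widest gap to the next region, the called list members with the largest changes, the 3 largest KO minus WT rises and falls among enriched genes, pathway-defining genes with Akap11, and the 5 most and 5 least variable enriched genes. Others were named after their values were seen. Alternatives were relative log expression factors, no low-count filter, DESeq2 1.42.0, the replicate number as a block, each library or region left out, other weights, the 10 libraries of a pair of regions alone, a test against a log2 fold change of 1, and a fold threshold of 2. Leaving out 2 doubted libraries together, the GABA genes in striatal and SN libraries alone, and Bdnf and Nrn1 without the doubted 4-week libraries were added after seeing the data. Some genes that the rule names are not reported here.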

Additional observations from a re-analysis of the deposited data

Results flagged for a closer look

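In 11 of 131 groups of 5 striatal WT libraries tested, 1 library lay far from the other 4; chance gives about 1 in 20. Of these, 5 were in STR WT 3: Gnas at 428 CPM, Htr7 at 4.27 CPM, Nts at 6.84 CPM, Gabra3 at 39.8 CPM and the neuropeptide score at 2.98. STR WT 5 was high for Nrn1 (1.49 CPM) and Slc17a6 (2.07 CPM), and STR WT 4 for Adcy8 (4.74 CPM) and Aldh1a1 (47.8 CPM). STR WT 2 stood apart for Nsg2 (1049 CPM) and for Kcnj13 (0.029 CPM against 0 in the other 4). The Kcnj13 value is at the floor, where any lone count is flagged, so nothing is read from it.

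Among 104 named genes, 13 had a striatal contrast that differed between KO and WT at 12 weeks in the test of that difference (edgeR, log2, KO minus WT). Over all genes 3.34% did, and 6 of the 13 (Dchs2, Reln, Rgs2, Aoah, Ifi27l2a and Abi3bp) were named because this difference was large. The difference was rerun under other settings only for these 6 genes. It was lower in KO for Aoah (-3.46), Egr2 (-2.77), Ifi27l2a (-2.70), Abi3bp (-2.52), Rspo1 (-1.22), Nell1 (-0.48), Grik2 (-0.33), Gsk3b (-0.31) and Ppp4r4 (-0.31). It was higher in KO for Dchs2 (0.82), Reln (0.78), Rgs2 (0.65) and Adcy1 (0.56).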

How the results depend on the processing

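A test against a log2 fold change of 1 called 1133 genes higher and 1305 lower in place of 5591 and 5969, and a fold threshold of 2 left 396 enriched and 241 depleted genes; both are stricter by construction. The KO minus WT contrast gave 117 to 259 genes higher and 172 to 355 lower when each replicate number was left out in turn, with 117 and 179 without number 1, 124 and 184 without 4, and 129 and 172 without 5; the cause was not tested. Leaving out each WT library gave 743 to 821 enriched and 585 to 725 depleted genes. The other settings kept each count within 1.5 times. Of 118 results for named genes, 21 lost or gained a call under at least 1 setting and 0 reversed.

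Same-numbered libraries of different regions correlated over 0.1 in 53 of 75 pairs (median 0.142, against -0.045 for different numbers), and all 5 striatal libraries correlated best with their own number, a hint from the data and not the design. With the replicate number as a block, 5718 genes were higher and 6159 lower, and the KO minus WT contrast called 364 and 430. Depth limits mainly genes near 0 in striatum.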
